A study of Homo sapiens with 6 samples.

Results

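The transcripts described here are those that the GENCODE annotation marks as targets of nonsense-mediated decay (NMD) and that were expressed in Rh30 cells with and without a knockdown of DDX5. A transcript was a member if GENCODE release 29 for GRCh38 gave it this biotype, if its mean over the 6 libraries was at least 1 TPM (kallisto's abundance scaled for transcript length and library total), and if its gene also had a protein-coding transcript. Members were thus chosen by their measured TPM over both groups together, and their level is a description. There were 4149 members in 2797 genes, out of 15280 NMD transcripts and 169797 transcripts of all kinds that were joined to the annotation. Of the other NMD transcripts, 3482 were listed at 0 in all libraries, 7566 lay above 0 and under 1 TPM, and 83 reached 1 TPM in a gene with no protein-coding transcript. The minimum fell among transcripts of very similar level. IMPAD1 ENST00000520392.1 at 1.00015 TPM and SULT1A4 ENST00000569544.5 at 1.00055 TPM were just inside it. TANGO2 ENST00000399807.7 at 0.999892 TPM and TSC1 ENST00000642854.1 at 0.999585 TPM were just outside it.

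Rh30 is an established line of alveolar rhabdomyosarcoma, a tumour of muscle-like cells, and the labels describe it as positive for the PAX3-FOXO1 fusion, which both groups therefore share. Messenger RNA of 3 siDDX5 libraries, in which DDX5 was knocked down, was compared with that of 3 control libraries. The labels name the control only as control and give no siRNA sequence, dose or time. The series' design text calls the 3 libraries of a group biological replicates.

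NMD is a surveillance pathway of translated messenger RNA. A ribosome that stops well upstream of an exon junction leaves an exon junction complex on the RNA, and the helicase UPF1 with its partners then marks the transcript for decay. Many genes for splicing factors make such transcripts by including a so-called poison exon, and this is known as a means by which these proteins limit their own levels. DDX5 is a DEAD-box RNA helicase with known roles in transcription and splicing.

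The members most often discussed below carry the following ends of the annotated coding sequence. Each line gives the last 30 bases of the coding sequence as GENCODE 29 has it, 5′ to 3′, with the stop codon in capitals. The first 4 belong to members whose share of their gene rose in siDDX5.
UNK ENST00000587501.1: gagaaaccgcagcactacacctatggtTGA
CAPRIN2 ENST00000454014.6: agacaaacacttgaaggatctactgtcTAA
PSME3 ENST00000543428.5: ggaaacagttgcagagctaagaactgtTGA
SHMT2 ENST00000555116.5: atactatgggggagcagaggtggtggaTGA
These 7 belong to members whose share fell.
GRB2 ENST00000648046.1: tatgtcacccccgtgaaccggaacgtcTAA
CRYZL1 ENST00000437996.5: cctcccatagagaacagtacaattgccTGA
DHX40 ENST00000580218.5: gcaggagacagcaatcaaatatatgacTGA
UBA2 ENST00000586313.1: gtggaacagctgggtatcttggacaagTAA
TIMM50 ENST00000601358.5: ggagctcaccggcgtcctcttgcatccTGA
PIGT ENST00000640175.1: ccctgtttgcagaaatgcacgctgtacTAG
USP22 ENST00000579645.5: cgaagcggcacaacctggccattgatcTGA
The remaining 6 are the DDX5 member and members of splicing-factor genes, shown because DDX5 is the targeted gene and such genes are known for NMD transcripts.
DDX5 ENST00000581693.5: gaggtcacaactgcccgaagccagttcTAA
SRSF1 ENST00000583741.1: gccttcgttgagttcgaggacccgcggTGA
SRSF6 ENST00000483871.6: gccatgacgacagcagccttttgccatTAG
SRSF7 ENST00000443213.5: cggcgaagaagaagcaggtatttatttTAA
TRA2B ENST00000456380.5: aatgagtatttgaagctcaggaataagTGA
HNRNPA1 ENST00000547566.5: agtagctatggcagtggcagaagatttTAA

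The libraries held between 18202402 and 26156858 estimated counts, and between 97.04% and 97.19% of TPM was on transcripts of the annotation. The knockdown was visible at the gene level. Summed over its transcripts, DDX5 had 1661, 1686 and 1340 TPM in the control libraries and 795, 520 and 450 TPM in the siDDX5 libraries. The log2 fold change was -1.43 ± 0.15 (SE), with an adjusted p of 0.014 in edgeR's quasi-likelihood test. Of 21 markers of muscle and rhabdomyosarcoma, 16 reached a mean of 1 TPM. Among them, MYOD1 was at 140 ± 27 TPM in control and 132 ± 20 TPM in siDDX5, and MYOG at 118 ± 51 and 103 ± 34 TPM (SD, n = 3). The others, ACTA1, MYF6, MYH8, TNNT3 and TFAP2B, were under 1 TPM, and TFAP2B was listed at 0 in every library. Of 12 markers of epithelial, blood and endothelial cells, 3 reached a mean of 1 TPM, and the summed level of all 12 was 10.7 to 11.9 TPM in control and 9.96 to 11.5 TPM in siDDX5. Because these are bulk samples, fewer cells of a kind and less RNA per cell cannot be told apart.

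Most members were minor products of their gene. The median of the mean level was 2.50 TPM, against 4.59 TPM for the 30343 protein-coding and 2.72 TPM for the 11948 retained-intron transcripts that met the same minimum. The share of a member is its TPM as a percentage of the summed TPM of its gene in the same library. The gene total holds only transcripts of the annotation, and 82 members were in genes with over 10% of their TPM on transcripts outside it, matched by gene symbol. The median share was 5.79%, against 15.3% for protein-coding and 5.51% for retained-intron transcripts. There were 1876 members under 5% of their gene and 114 above 50%, and 73 of these 114 were in genes of at least 5 TPM. Most genes with a member had only 1 of them (1922 genes), 571 had 2 and 304 had 3 or more. FANCA, a DNA repair gene of the Fanconi anaemia pathway, and RBM39, a splicing factor, had the most, with 10 members each.

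A few members were among the abundant RNAs of these cells. There were 23 members of at least 100 TPM, in 21 genes. The highest was in RPS3, a protein of the small ribosomal subunit, where ENST00000528439.5 had 1005, 985 and 1013 TPM in control and 860, 1247 and 1015 TPM in siDDX5. Its share of the RPS3 total was 27.5% ± 1.4 in control and 27.8% ± 2.4 in siDDX5 (SD, n = 3). ENST00000349264.10 of B2M, the light chain of MHC class I molecules, had a share of 66.9%, 62.0% and 64.2% in control and 65.4%, 57.8% and 60.0% in siDDX5. For B2M this is a share of the annotated part alone, since 66.5% of the TPM under its symbol was on transcripts outside the annotation. ENST00000434494.5 of PDIA3, a protein disulfide isomerase of the endoplasmic reticulum, made up nearly the whole of its gene, with 89.0% ± 0.3 in control and 89.9% ± 1.1 in siDDX5. In each of these 3 genes the groups overlapped. HNRNPA1 ENST00000547566.5 (33.1% ± 1.7 and 32.6% ± 1.4), a cytoskeletal septin transcript, SEPT7 ENST00000635175.1 (58.3% ± 0.2 and 54.2% ± 4.4), and both abundant members of the cell-cycle kinase gene CDK4 also overlapped between the groups. Over the 23 members of at least 100 TPM the groups did not overlap in 2 (8.70%, against 13.5% of all transcripts of at least 1 TPM), none was called for usage, and the smallest unadjusted usage p was 0.00783.

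In genes of at least 5 TPM the highest shares were those of TBC1D3B ENST00000610580.1, THSD8 ENST00000639767.2, ARPC4-TTLL3 ENST00000424442.5, CYP46A1 ENST00000554611.5 and DCC ENST00000579349.1. The first was 99.6% or more of its annotated total in all 6 libraries, but 79.2% of the TPM under the symbol TBC1D3B was on transcripts outside the annotation and not in that total. TBC1D3B has near-identical copies and ARPC4-TTLL3 is a readthrough locus that overlaps its neighbours, and the division of reads there is uncertain. ARPC4-TTLL3 was the only one of these 5 whose groups did not overlap, at 98.0%, 97.4% and 98.6% in control and 90.9%, 91.9% and 97.3% in siDDX5. It was not among the transcripts tested for usage.

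The position of the stop codon is what the annotation uses to assign this biotype, so it is given here as a description. In 4104 of 4142 members with an annotated stop (99.1%) the stop lay more than 50 bases before the last exon junction, against 172 of 24764 protein-coding transcripts (0.695%). The median distance was 331 bases. The annotated coding sequence was short, with a median of 276 bases against 1146 bases in protein-coding transcripts. The stop was TGA in 57.0% of members and in 48.6% of protein-coding transcripts.

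**Figure D1:**
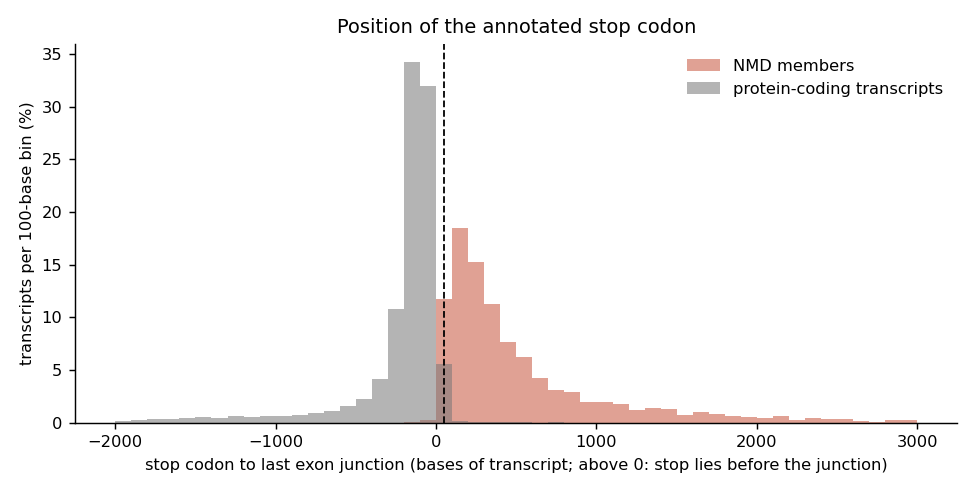
Distance from the annotated stop codon to the last exon junction, in bases of the transcript, for members (red) and protein-coding transcripts of at least 1 TPM (grey), as the percentage of transcripts in bins of 100 bases between -2000 and 3000 bases. The dashed line marks 50 bases; 99.1% of members and 0.695% of protein-coding transcripts lie beyond it.

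The members reached their stop by different routes when each was compared with the most abundant protein-coding transcript of its gene. In 1803 members (43.5%) the stop was inside an exon of that transcript but in another frame or at another position, and 1203 of these lacked exonic bases without gaining any. The summed length change was not a multiple of 3 in 1720 of the 1803. In 1385 members (33.4%) the stop was in an exon that the coding transcript does not have, and the median length of that exon was 121 bases. A poison exon would fall in this class, but whether the exon lay between shared exons was not checked. In 490 (11.8%) it was in an extension of an exon or a retained intron, and in 251 it was outside the span of the coding transcript. A further 203 kept the normal stop codon and had an exon junction behind it. Not all members can be told from their neighbours with equal ease, because 829 had no intron and no base that was not also in another transcript of their gene.

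Taken as a whole, the members took the same part of their genes' output in both groups within the spread of the libraries. Their summed TPM was 9.07%, 9.82% and 9.55% of that of their genes in control and 9.68%, 8.95% and 9.25% in siDDX5. The means were 9.48% ± 0.38 and 9.29% ± 0.36 (SD, n = 3), and the groups overlapped. The median share of a member was 5.56%, 6.02% and 5.89% in control and 5.62%, 5.18% and 5.41% in siDDX5, again with overlap. The number of members listed at 0 was 76, 78 and 94 in control and 89, 147 and 153 in siDDX5. Every siDDX5 library held fewer estimated counts (19971888, 19282386 and 18202402) than every control library (26156858, 21265569 and 24229578). The libraries with the most zeros, siDDX5 replicates 2 and 3, were also the 2 with the fewest counts. Within each replicate number the siDDX5 library had more members at 0 and fewer counts than the control library. The summed and median shares moved in both directions. Retained-intron transcripts took 8.0%, 9.73% and 8.61% of all TPM in control and 8.63%, 7.26% and 8.02% in siDDX5. Their part, and that of depth, in the differences between members was not tested.

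**Figure D2:**
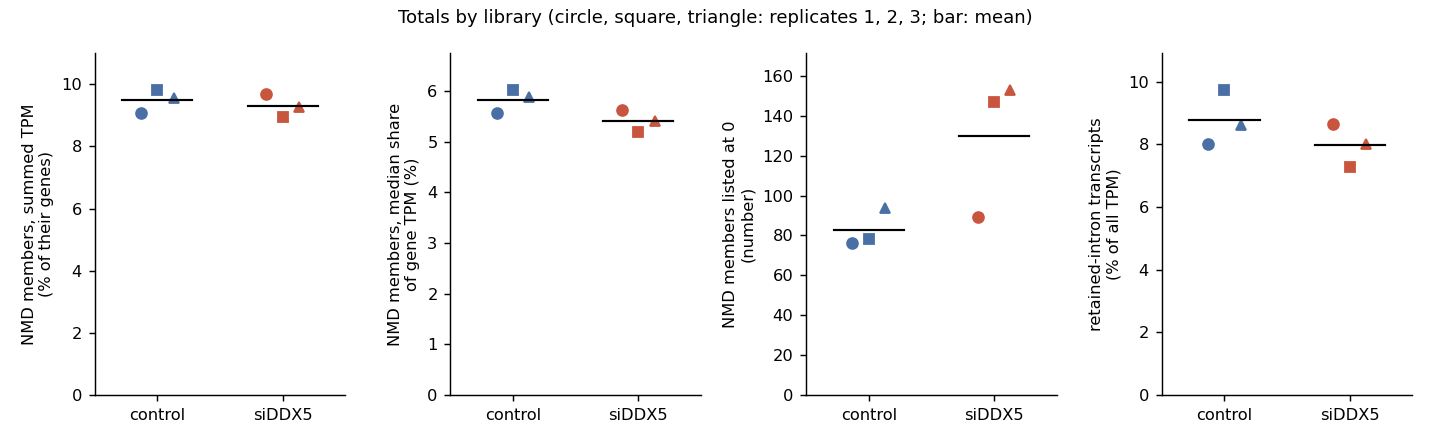
Totals by library, from left to right the summed TPM of members as a percentage of the TPM of their genes, the median share of a member in percent, the number of members listed at 0, and the percentage of all TPM on retained-intron transcripts; points are libraries and bars are group means. The groups overlap in all 4, and siDDX5 replicates 2 and 3 have the most members at 0, 147 and 153.

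The differences of single members spread to both sides. The mean share was higher in siDDX5 for 1902 members (45.8%) and lower for 2245. Of all transcripts of at least 1 TPM, 45.8% were higher as well. The median difference over members was -0.12 percentage points. It was 0.02 for protein-coding, -0.24 for retained-intron and -0.005 for all transcripts of at least 1 TPM. The 3 siDDX5 libraries all lay above the 3 control libraries for 245 members and all below them for 341, so that 586 members (14.1%) had groups that did not overlap. Over all 57480 transcripts of at least 1 TPM this was so for 13.5%, with 6.15% above and 7.31% below. The members' proportion was thus near that of transcripts at large. The routes to the stop did not share one direction. Of members with the stop in an exon absent from the coding form, 60 (4.33%) were all above and 129 (9.31%) all below, and of those with the stop in an extension or retained intron, 22 (4.49%) were above and 52 (10.6%) below. Members with the stop inside a coding exon were balanced, with 124 above and 128 below, and those that kept the normal stop codon went the other way, with 25 (12.3%) above and 12 (5.91%) below. No test was made of these differences between routes.

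**Figure D3:**
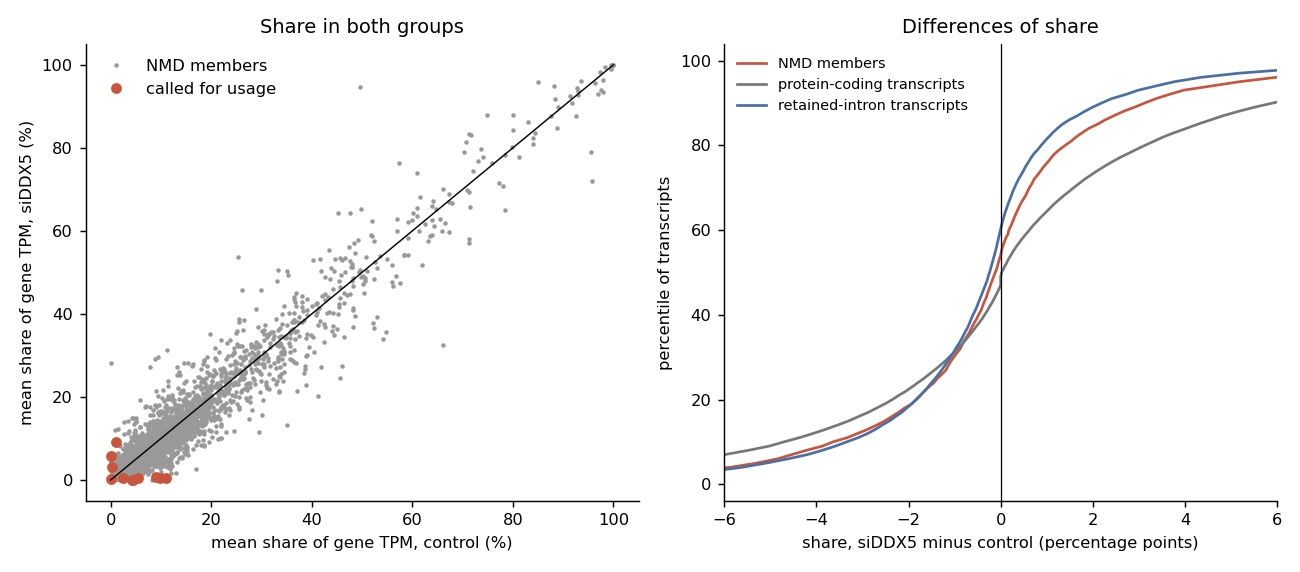
Left, mean share of gene TPM of each of the 4149 members in control (x axis, percent) and siDDX5 (y axis, percent), with the 11 members called for usage in red and the line of equality. Right, percentiles of the difference of the share, siDDX5 minus control in percentage points, for members, protein-coding and retained-intron transcripts; the medians are -0.12, 0.02 and -0.24.

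Usage within the gene was tested with edgeR's diffSpliceDGE, which asks whether a transcript's log2 change differs from that of the rest of its gene. Of the 4149 members, 3499 passed the filter on low counts and 650 did not. The test called 11 members at an adjusted p under 0.05, or 0.314%, against 185 of 54668 transcripts of all kinds (0.338%). An unadjusted p under 0.05 was found for 121 members (3.46%), against 2.91% of all transcripts. Among transcripts of at least 1 TPM, the level that members had to reach, 94 of 45487 were called (0.207%) and 2.4% had an unadjusted p under 0.05. Retained-intron transcripts had 0.0427% called and protein-coding transcripts 0.270%. Whether members differ from other transcripts in this was not tested. The calls were 4 rises and 7 falls, where all transcripts had 0.166% called higher and 0.172% called lower. With the replicate number as a block, 9 of the 11 were called, against 0.327% of all transcripts. All 11 had a mean between 1.55 and 5.87 TPM, and 9 of the 11 were listed at 0 in at least 1 library. In all 11 the mean of the lower group was under 1 TPM, so that each met the minimum only through the group in which it was high, and their number is no measure of how members at large behaved. Of the 11, 8 had their stop inside a coding exon and lacked exonic bases of the coding form. Among these, UBA2 and USP22 also gained exonic bases (138 gained and 568 lost in UBA2, 440 gained and 375 lost in USP22). The members of CAPRIN2, SHMT2, CRYZL1 and TIMM50, 4 of the 11, had no intron or base of their own. The number called depended on single libraries: it was 18 without control replicate 1, 7 without control replicate 3 and 27 without siDDX5 replicate 1. A limma test on the log2 odds of the share called 1 member (CAPRIN2), and the edgeR test called 3 when a mean count of 50 or more was required and none among members of at least 1 TPM in every library.

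**Figure D4:**
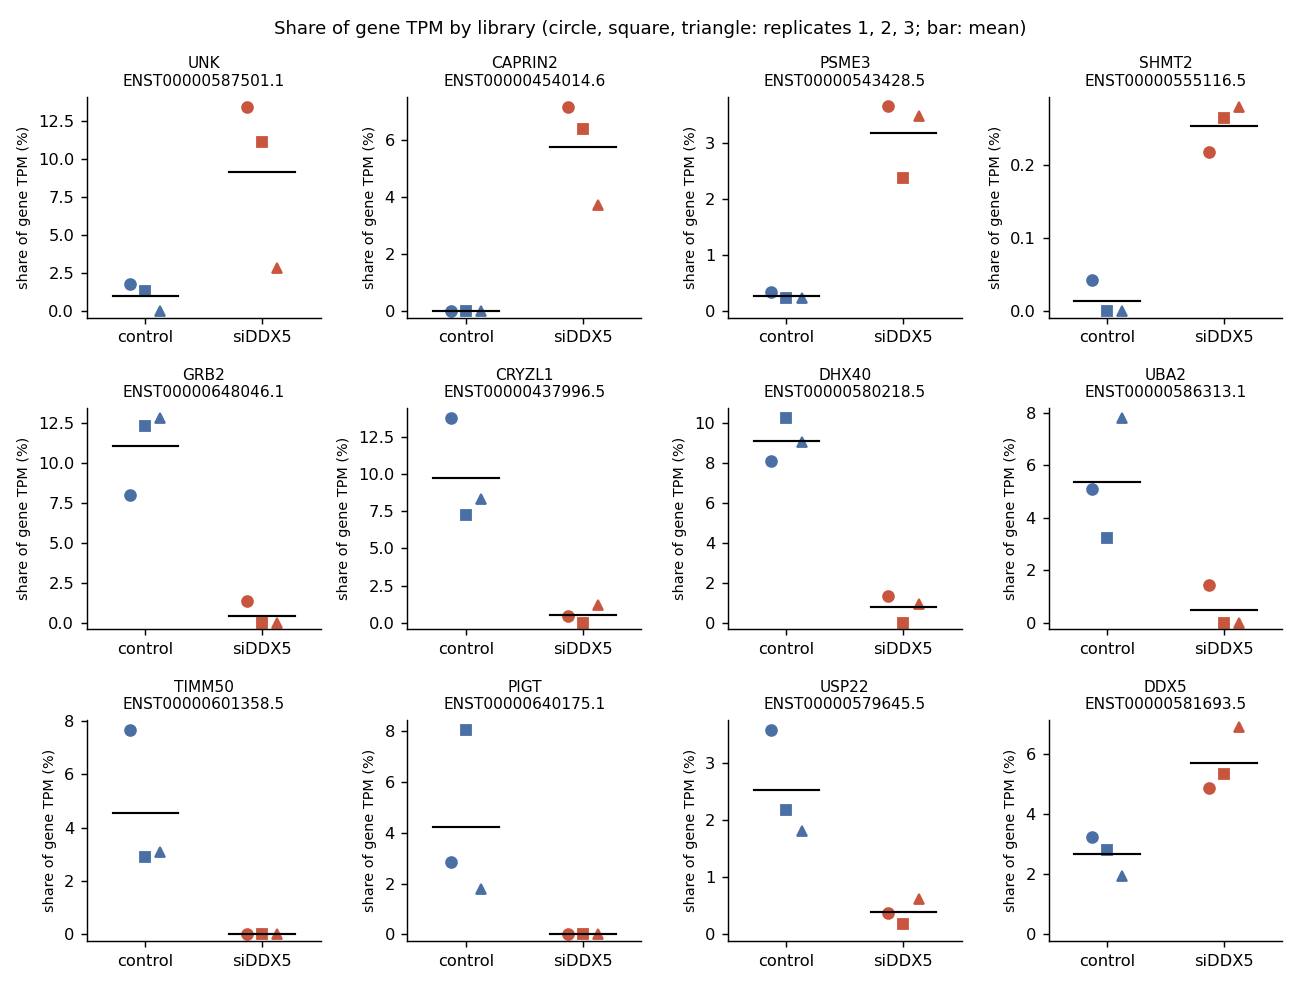
Share of gene TPM in percent for the 11 members called for usage (adjusted p under 0.05 in edgeR's diffSpliceDGE) and for the DDX5 member, which was not called; each point is a library and each bar a group mean, with a y axis that starts at 0 in every panel. No group overlaps with the other in any panel, and TIMM50 and PIGT are listed at 0 in all siDDX5 libraries.

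Among called members the largest rise in share was in UNK, a zinc-finger RNA-binding protein. ENST00000587501.1, with its stop at chr17:75792320-75792322 (plus strand) in an exon absent from the coding form, had a share of 1.77%, 1.31% and 0% in control and 13.4%, 11.1% and 2.84% in siDDX5. All siDDX5 libraries were above all controls, but replicate 3 was much closer to them. Its log2 change relative to the gene was 3.12 ± 0.62 (SE; adjusted p = 0.0142), and the call was lost without control replicate 2 or 3 or without siDDX5 replicate 1 or 2.

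CAPRIN2, an RNA-binding protein of the caprin family, had the smallest p of all members. ENST00000454014.6 lacks 83 exonic bases of the coding form, and its stop is at chr12:30731483-30731485 (minus strand). It was at 7.64e-05, 0 and 0 TPM in control and at 5.11, 2.95 and 2.14 TPM in siDDX5, or 7.16%, 6.40% and 3.74% of the gene. It had 265, 157 and 104 estimated counts in the siDDX5 libraries and under 1 in each control library, so no fold change is given. The adjusted p was 1.62e-15, and the call held without each library in turn. The member has no intron or base that is not also in another transcript of the gene. Its counts thus depend on how kallisto divides shared reads. The whole gene did not pass the test (log2 -0.24 ± 0.12, adjusted p = 0.482).

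In PSME3, the gene of a nuclear activator of the proteasome, ENST00000543428.5 rose from 0.337%, 0.231% and 0.24% of the gene to 3.65%, 2.38% and 3.48%. It lacks 113 exonic bases and stops at chr17:42838974-42838976 (plus strand). Both groups were tight, the log2 change relative to the gene was 3.49 ± 0.62 (SE; adjusted p = 0.00225), and no single library was needed for the call. The main coding transcript, ENST00000590720.5, went from 55.7% ± 0.9 to 46.9% ± 2.4 (SD, n = 3), all siDDX5 libraries below all controls, without a call of its own.

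SHMT2, the mitochondrial enzyme that converts serine to glycine, had 6 members. The one that was called, ENST00000555116.5, was a very small part of a highly expressed gene: 0.0433%, 0.000356% and 0% in control and 0.218%, 0.265% and 0.28% in siDDX5. It lacks 80 exonic bases and stops at chr12:57231740-57231742 (plus strand), a stop codon that 4 of the 6 members share. Its log2 change relative to the gene was 3.82 ± 0.77 (SE; adjusted p = 0.00232), and the call was lost without control replicate 2 or 3. The most abundant member, ENST00000557348.5, with the same stop, was not called (1.1% ± 0.19 in control and 1.5% ± 0.63 in siDDX5, SD, n = 3).

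CHD1, a chromatin remodeller, came next in the direction of a rise without being called. ENST00000512844.5 had a share of 3.8%, 0% and 0% in control and 5.46%, 8.10% and 11.5% in siDDX5 (adjusted p = 0.0961). Control replicate 1 stood apart from the other controls, and without it or without siDDX5 replicate 1 the member was called.

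Among called members the largest fall in share was in GRB2, the adaptor protein that links receptor tyrosine kinases to Ras. ENST00000648046.1 keeps the normal stop codon at chr17:75320368-75320370 (minus strand) and has a junction behind it. Its share was 8.01%, 12.3% and 12.8% in control and 1.38%, 0% and 0% in siDDX5. The log2 change relative to the gene was -4.36 ± 0.99 (SE; adjusted p = 0.0371). GRB2 was also 1 of the host genes that fell as a whole, with a log2 change of -0.86 ± 0.09 (SE; adjusted p = 0.0153). Blocking on the replicate number cost it the usage call (adjusted p = 0.162, in a range of 0.00112 to 0.493 over the alternatives), as it was without control replicate 2 or 3 or siDDX5 replicate 2 or 3.

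CRYZL1 encodes a quinone oxidoreductase-like protein. ENST00000437996.5, with a stop at chr21:33599266-33599268 (minus strand) in an extension of a coding exon, had 13.7%, 7.23% and 8.31% of the gene in control and 0.486%, 0% and 1.18% in siDDX5. The log2 change relative to the gene was -4.32 ± 0.78 (SE; adjusted p = 0.00125). The call was lost without control replicate 1 or siDDX5 replicate 2. Its main coding transcript went from 27.2% ± 1.6 to 33.5% ± 2.4, with all siDDX5 libraries above all controls.

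DHX40 is a DEAH-box helicase. ENST00000580218.5, which lacks 146 exonic bases and stops at chr17:59573139-59573141 (plus strand), went from 8.07%, 10.2% and 9.04% to 1.34%, 0% and 0.969%. The groups were far apart on the scale of the share, but the member had at most 27.2 estimated counts in any library. The adjusted p was 0.0339. It was 0.0675 with the replicate block, in a range of 0.0317 to 0.550 over the alternatives, and the call was lost without any 1 of the 6 libraries.

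UBA2 is a subunit of the enzyme that activates SUMO. ENST00000586313.1, with a stop at chr19:34434952-34434954 (plus strand), had 5.09%, 3.22% and 7.78% of the gene in control and 1.46%, 0% and 0% in siDDX5 (log2 change relative to the gene -3.51 ± 0.70, SE; adjusted p = 0.00705). The call was lost without control replicate 3 or siDDX5 replicate 3. USP22, the deubiquitinating enzyme of the SAGA complex, had 3.60%, 2.19% and 1.82% of its output on ENST00000579645.5 in control and 0.369%, 0.18% and 0.616% in siDDX5. This member, with a stop at chr17:21021215-21021217 (minus strand), passed narrowly (adjusted p = 0.0359) and lost the call without any 1 of the 6 libraries.

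In TIMM50 and PIGT the member was listed at 0 in every siDDX5 library, so no fold change is given. TIMM50 encodes a receptor subunit of the mitochondrial TIM23 import complex. Its member ENST00000601358.5, which lacks 59 exonic bases and stops at chr19:39485798-39485800 (plus strand), had 7.65%, 2.90% and 3.08% of the gene in control, on 166, 57.4 and 55 estimated counts (adjusted p = 1.71e-07). This member has no intron or base of its own. The TIMM50 gene as a whole had a log2 change of -0.55 ± 0.15 (SE). Its adjusted p in edgeR's quasi-likelihood test was 0.231, and 0.0295 with the replicate block. PIGT encodes a subunit of the transamidase that attaches GPI anchors. ENST00000640175.1, which lacks 407 exonic bases and stops at chr20:45420150-45420152 (plus strand), had 2.86%, 8.02% and 1.80% in control, on 66.0, 120 and 32.0 estimated counts (adjusted p = 9.82e-07). Both calls held without each library in turn, and neither held in the limma test on the log2 odds. Control replicate 1 was highest for TIMM50 and control replicate 2 for PIGT.

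DDX5 itself had 1 member. ENST00000581693.5 has its stop at chr17:64504246-64504248 (minus strand) in an extension of a coding exon or a retained intron. Its level was 54.0, 47.4 and 26.2 TPM in control and 38.6, 27.7 and 31.1 TPM in siDDX5, so the groups overlapped, whereas the gene total fell. As a share of DDX5 output it went from 3.25%, 2.81% and 1.96% to 4.86%, 5.33% and 6.90%, with all siDDX5 libraries above all controls. The log2 change relative to the gene was 1.08 ± 0.34 (SE), with an unadjusted p of 0.00197 and an adjusted p of 0.313, so it was not called. No member lay in DDX17, the close paralogue of DDX5.

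Serine/arginine-rich (SR) proteins promote the use of exons, and TRA2 proteins are related to them. Of 17 genes on the list, 13 had 23 members between them, 20 of these were tested, and none was called. The member groups did not overlap in 3, with 1 above and 2 below, against the 13.5% of all transcripts. Both that lay below were among the 4 most abundant. SRSF6 ENST00000483871.6, with its stop at chr20:43459302-43459304 (plus strand) in an exon absent from the coding form, had 43.5%, 45.4% and 43.2% of the gene in control and 37.6%, 31.9% and 38.4% in siDDX5 (log2 change relative to the gene -0.41 ± 0.20, SE; unadjusted p = 0.147). SRSF7 ENST00000443213.5, with its stop at chr2:38749516-38749518 (minus strand) in an exon extension or retained intron, had 19.4%, 20.4% and 22.0% in control and 17.1%, 13.5% and 15.3% in siDDX5 (-0.48 ± 0.24, SE; unadjusted p = 0.103). SRSF1 ENST00000583741.1 (stop at chr17:58006940-58006942, minus strand) had 27.6%, 26.4% and 22.7% against 24.2%, 18.3% and 17.8%, with overlap. TRA2B ENST00000456380.5 (stop at chr3:185931772-185931774, minus strand), with its stop in an exon absent from the coding form, had 23.7% ± 4.3 and 24.2% ± 3.7 (SD, n = 3). Summed over all 23 members, the share was 11.3%, 10.9% and 10.7% of the TPM of their genes in control and 9.94%, 9.29% and 9.91% in siDDX5, without overlap; no test was made. The median difference over the 23 was -0.01 percentage points.

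**Figure D5:**
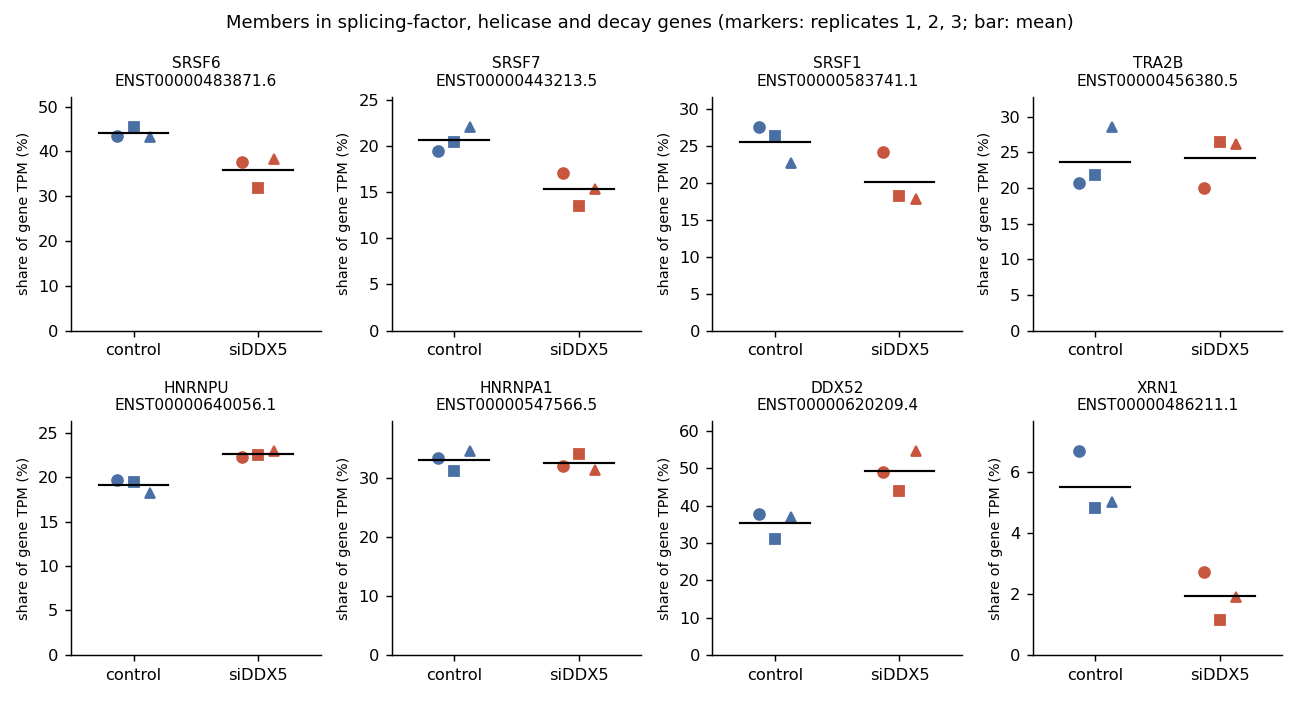
Share of gene TPM in percent, from 0, for 8 members in genes of SR proteins and TRA2B, hnRNPs, the helicase DDX52 and the exonuclease XRN1; each point is a library and each bar a group mean. None was called; SRSF6, SRSF7 and XRN1 have all siDDX5 libraries below all controls, HNRNPU and DDX52 all above, and the other 3 overlap.

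The list of hnRNPs and other splicing regulators had 66 members in 32 of 59 genes, of which 56 were tested and none was called; 5 lay above and 3 below (12.1% without overlap, against 13.5% of all transcripts). In HNRNPU, a nuclear scaffold protein that binds RNA, ENST00000640056.1 had 19.7%, 19.5% and 18.2% of the gene in control and 22.3%, 22.5% and 22.9% in siDDX5. The log2 change relative to the gene was 0.22 ± 0.35 (SE; unadjusted p = 0.536).

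Helicases of the DEAD-box and DEAH-box families had 37 members in 20 of 48 genes, with 4 above and 4 below (21.6% without overlap, against 13.5% of all transcripts) and DHX40 as the single call among 29 tested, where 0.338% of all transcripts were called. Their summed share was 7.78%, 8.25% and 8.41% of their genes in control and 10.4%, 9.10% and 10.2% in siDDX5, without overlap. The direction of this sum was opposite to that of the SR list, while the median difference over the 37 members was -0.31 percentage points. No test was made. DDX5, the targeted gene, is of this family, and its total was 1563 TPM in control and 588 TPM in siDDX5 (means). The share of its member rose, as described above, and a sum without DDX5 was not made. DDX52 ENST00000620209.4, in a helicase gene of ribosome biogenesis, had its stop in an exon absent from the coding form. Its level was 13.3, 13.3 and 16.9 TPM in control and 25.5, 23.2 and 27.4 TPM in siDDX5, and its share 37.9%, 31.0% and 37.0% against 49.1%, 44.1% and 54.6%. No siDDX5 library overlapped with the controls on either scale, but the member was called neither for usage (unadjusted p = 0.121) nor for abundance (log2 0.89, adjusted p = 0.268). DDX3X ENST00000615742.4 was set apart by 1 library, with 12.8%, 2.99% and 16.8% in siDDX5 against 15.4%, 10.4% and 17.1% in control.

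Genes of the decay pathway and of the exon junction complex had 7 members in 5 of 26 genes, and none of the 3 tested was called. Their summed share was 9.18%, 9.996% and 9.84% in control and 8.54%, 8.502% and 7.81% in siDDX5, all below. These sums were not tested. Over the 7 members the median difference was -0.004 percentage points, in a range of -3.58 to 2.00. The groups did not overlap in 1 of the 7 (14.3%, against 13.5% of all transcripts). XRN1 ENST00000486211.1, in the gene of the main 5′ to 3′ exonuclease of the cytoplasm, had 6.67%, 4.80% and 5.03% in control and 2.72%, 1.16% and 1.90% in siDDX5, without overlap (unadjusted p = 0.189). Both members of MAGOHB, a core protein of the exon junction complex, overlapped between groups. At the level of whole genes, among the 26 genes only DCP2, the catalytic subunit of the decapping enzyme, was called, with 26.05 ± 5.0 TPM in control and 43.6 ± 5.9 TPM in siDDX5 (SD, n = 3; log2 1.16 ± 0.16, SE; adjusted p = 0.0321). UPF1, the central helicase of NMD, had 44.0 ± 3.1 and 37.7 ± 1.7 TPM (log2 -0.07 ± 0.11, adjusted p = 0.834). SMG1, the kinase that acts on UPF1, had 114 ± 20 and 105 ± 20 TPM (log2 -0.09 ± 0.14, adjusted p = 0.865). These log2 changes are of estimated counts, which are not corrected for transcript length. In TPM, UPF1 did not overlap (41.0, 47.2 and 43.8 in control, 39.2, 35.8 and 38.1 in siDDX5), while SMG1 did.

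The other lists gave no further call besides SHMT2, and their counts without overlap stand against 6.15% of all transcripts above and 7.31% below. Cytosolic ribosomal proteins had 39 members in 27 of 82 genes found, with a median share of 0.493%, and the RPS3 member described above lay far over that median. Genes of the mitochondrial ribosome and respiratory chain had 65 members with 7 above and 9 below (24.6% without overlap, against 13.5%), and SDHC ENST00000470743.4, of a succinate dehydrogenase subunit, kept 46.3% ± 3.2 and 45.0% ± 3.6 of its gene. COX6C, a subunit of cytochrome c oxidase, had 2 members that overlapped between the groups and differed widely among replicates. ENST00000520517.5 had 35.1%, 89.2% and 90.1% in control and 14.3%, 91.0% and 91.7% in siDDX5, and ENST00000522934.5 had 52.1%, 0.966% and 0.771% against 79.4%, 0% and 0.52%. Replicate 1 of both groups stood apart, while the sum of the pair was 87.2% to 93.7% in all 6 libraries. UQCRB ENST00000517603.5, of a subunit of complex III, had 31.8%, 27.7% and 31.8% in control and 32.2%, 37.4% and 35.8% in siDDX5, all above. The cell-cycle list had 32 members, with 1 above and 2 below (9.38%, against 13.5%). MAD2L1 ENST00000333047.9, of the spindle checkpoint protein, was most of its gene at 73.1% ± 3.8 and 76.9% ± 0.1. The list of amino acid and stress-response genes of the ATF4 pathway had 16 members, with 1 above and 3 below (25%, against 13.5%). MTHFD2 ENST00000470592.5, of a mitochondrial folate enzyme, had 59.0% ± 1.4 and 54.2% ± 5.8 with overlap, and TMEM258 ENST00000257262.12 had 43.5%, 49.0% and 52.1% in control and 34.4%, 40.0% and 36.0% in siDDX5, all below. Among the muscle and rhabdomyosarcoma markers 1 gene had a member, FGFR4, a receptor tyrosine kinase that marks this tumour, where ENST00000430285.5 had 17.3%, 21.3% and 19.8% in control and 16.5%, 16.5% and 18.8% in siDDX5.

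The abundance of each transcript was tested on its own as well, since a share can move through the other transcripts of a gene. None of 3533 members was called by edgeR's quasi-likelihood test, as none of all 58719 transcripts was (0.0%), while 246 members had an unadjusted p under 0.05, or 6.96% against 7.13% of all transcripts. DESeq2 called 37 of the 1509 members to which it gave an adjusted p (2.45%), 23 higher and 14 lower, against 2.89% of all transcripts with an adjusted p, and limma called none. The 5 members with the smallest p included CAPRIN2, PSME3, TIMM50 and DDX52, described above. The fifth was STRN3 ENST00000555358.5, in the gene of a striatin that is a regulatory subunit of phosphatase 2A complexes, at 2.71, 4.03 and 3.44 TPM in control and 0.704, 0.897 and 0.675 TPM in siDDX5. Its share went from 5.76%, 8.42% and 8.15% to 1.14%, 2.11% and 1.48%, all siDDX5 libraries below all controls. The log2 change in abundance was -2.03 (adjusted p = 0.253).

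Few host genes were called as a whole, and with 3 libraries per group a gene that was not called may still have changed. Of 2790 genes with a member that were tested, 7 were called (0.251%), against 25 of 15095 genes of all kinds (0.166%, with 0.053% higher and 0.113% lower). With the replicate number as a block 62 were called, 29 higher and 33 lower, against 1.95% of all genes, 0.855% higher and 1.1% lower. Without control replicate 1, siDDX5 replicate 1 or siDDX5 replicate 2 the number was 0, and without control replicate 2 or siDDX5 replicate 3 it was 4. The 7 were SFXN1 and DCP2, which rose, and PANK4, DDX5, OPN3, CTDSP2 and GRB2, which fell. Each has 1 member, and the members did not follow one pattern. SFXN1 is a mitochondrial serine transporter. Its member ENST00000507823.5 had 3.85, 4.65 and 4.70 TPM in control and 3.19, 4.31 and 3.71 TPM in siDDX5. The gene rose by 1.07 ± 0.10 on the log2 scale of estimated counts, which are not corrected for transcript length. The member's share of the gene's TPM went from 6.23% ± 0.43 to 3.45% ± 0.64 without overlap. OPN3 encodes an opsin expressed outside the eye, and its member ENST00000490673.5 had 25.7%, 16.9% and 20.2% in control and 11.1%, 11.4% and 12.2% in siDDX5, so its share was lower in all 3 siDDX5 libraries. The share of the members in PANK4, CTDSP2 and DCP2 overlapped between the groups.

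The tests describe the spread between these 6 libraries and leave out the error made when kallisto assigns shared reads to one transcript or another. In simulated counts with 195 changed transcripts, the usage test recovered 12.2% of changes of 1 on the log2 scale and 67% of changes of 3. It also made 29 calls in unchanged genes beside 77 of changed transcripts, which is 27.4% of the 2 together and above the nominal 5%. Calls of unchanged transcripts in changed genes were not counted. All simulated transcripts had the same dispersion of 0.05 and no error in the assignment of reads, so this rate need not hold here. Single usage calls should be taken as less certain than their adjusted p.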

How the data were processed

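Per the submitters' processing notes, reads were handled with bcl2fastq 2.20, FastQC 0.11.8, cutadapt 1.11 and kallisto 0.46.0, and the notes name GRCh38 (hg38). Per the labels, stranded mRNA libraries were made from total RNA. The authors deposited 1 table per library of 188753 transcripts, whose columns, per the file headers, are transcript length and effective length, estimated count and TPM. The estimated counts were deposited without scaling, with shared reads already divided among transcripts. The deposited TPM values are relative to transcript length and to the library total. The annotation the authors used is not given in the sources used here.

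Transcripts were joined to GENCODE 29 by identifier without version (169797, or 90.0%; the 158775 of the same version were equal in length). Shares were computed from TPM. Estimated counts were rounded to whole numbers, passed through filterByExpr, normalized by TMM and analysed in edgeR 4.0.16 under R 4.3.3 in a model of group alone: diffSpliceDGE for usage and the quasi-likelihood test for transcripts and for genes, each adjusted by Benjamini-Hochberg over the whole table. Counts of a gene were summed over its transcripts without correction for transcript length. Standard errors are the fitted log2 change divided by the square root of F. Alternatives used DESeq2 1.42.0 and limma 3.58.1 on log2 odds of the share or log2 TPM, with pseudocounts of 0.1 and 1 TPM. A count of 3 corresponded to 0.115 to 0.165 CPM by library. Libraries with the same replicate number in the titles deviated together over 15095 genes (correlations 0.22, 0.28 and 0.55). A fit with the number as a block is given where it changed the usage call of a member. For host genes it is given as the number called, and for TIMM50 by value.

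Named members were those called for usage (made up to 5 in a direction by the smallest p without overlap), the 8 highest by TPM, the 5 highest by share in genes of at least 5 TPM, up to 4 per gene list by TPM, the member of DDX5, those at the TPM minimum, the 5 with the smallest abundance p, and the genes of DDX5 and the NMD factors. The members and lists were chosen with earlier results of these data known. The scripts were tested on simulated counts with 195 changed transcripts among 52506 (usage) and 56532 (abundance) tested: usage recovered 12.2% at a log2 change of 1 and 67% at 3, with 29 calls in unchanged genes beside 77 true ones (6 beside 94 for limma on log2 odds), and transcript abundance 31.6% and 99%, with 12 beside 127. No call was made when nothing was changed. One of the members that this rule names and 1 sequence are not reported here.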

Additional observations from a re-analysis of the deposited data

How the results depend on the processing

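The usage test called 11 members. It called the same number with DESeq2 size factors and with counts from length-scaled TPM, and 9 with the replicate block, which cost GRB2 and DHX40 their call, changed no other usage call among members, and moved the host genes called from 7 to 62. The number was 1 and 0 with limma on log2 odds at pseudocounts of 0.1 and 1 TPM, 3 with a mean of at least 50 counts, and 18 without a filter beyond 1 count. It was 2 for members of at least 5 TPM and 0 for members of at least 1 TPM in each library, where fewer transcripts were tested (1047 of 1059 members and 2216 of 2334 members, against 3499 of 4149). Leaving out 1 library gave 7 to 27. CAPRIN2, PSME3, TIMM50 and PIGT were called without each library in turn, though the members of CAPRIN2 and TIMM50 have no intron or base of their own. No direction reversed for the 13 members followed over all alternatives.

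Over all transcripts, 185 were called, against 19 and 4 with limma, 48 with at least 50 counts, 516 without the filter and 258 to 543 with 1 library left out. Transcript abundance called no member with edgeR or limma under any setting, and DESeq2 called 37. Host genes called were 70 with DESeq2, 0 and 0 with limma, 18 without the filter and 0 to 7 with 1 library left out. The cause of these shifts was not tested. The median difference of the share stayed below 0 in every setting, between -0.21 and -0.01 percentage points with 1 library left out, and the difference of the summed share between -0.39 and -0.01. At the depth of these libraries, members of few counts are the least certain.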
